A study of Mus musculus with 6 samples.

Results

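The enzymes of the tricarboxylic acid (TCA) cycle, with the proteins that bring pyruvate into it and the malic and isocitrate enzymes beside it, were followed in 6 RNA-seq libraries of the mouse line NE-4C. Of 35 genes chosen by name, 34 were in the deposited tables, out of 14667 genes in all, and Me3 was not analysed here. The line is labelled a neural stem cell from brain and is described as lacking p53. All 3 groups carry a knockout of H3f3a, a gene for the histone variant H3.3, and stably express an HA-tagged H3.3 in its place. H3.3WT expresses the wild-type protein, Cbfa2t2_KO expresses it after a further knockout of Cbfa2t2, and H3.3K27M expresses H3.3 with lysine 27 changed to methionine. Each group has 2 libraries. The sources used here do not say whether each line is a single clone, or whether both libraries of a line are from different cultures. P-values therefore measure only the spread between these libraries, which may be technical. Cells grew in minimum essential medium with serum and added L-glutamine, so glutamine was supplied to every line.

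Pyruvate made by glycolysis crosses the inner mitochondrial membrane through the carrier of Mpc1 and Mpc2. The pyruvate dehydrogenase complex then turns it into acetyl-CoA, and kinases (Pdk genes) switch that complex off while phosphatases (Pdp genes) switch it on. The cycle joins acetyl-CoA to oxaloacetate and oxidises the product step by step. In proliferating cells it also exports citrate for lipid synthesis, and it makes 2-oxoglutarate, the cosubstrate of histone demethylases, as well as succinate and fumarate, which inhibit them. The title describes CBFA2T2 as a reader of histone H3 lysine 27 that acts on metabolic genes and metabolites. The comparisons ask how RNA levels of these enzymes differed between the lines.

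Levels are FPKM (fragments per kilobase of transcript, scaled to the size of the library), so they are already divided by length, and each library is named by group and replicate. Without counts in the tables the depth of each library is unknown, and no interval for counting error can be given. Summed FPKM ran from 363586 to 419389 per library. Differences are on the scale of log2(FPKM + 1), with their SE, from limma fitted to every gene that averaged 1 FPKM or more, and a gene is said to rise or fall where its Benjamini-Hochberg adjusted p is under 0.05. That scale understates changes of low genes. The H3.3WT libraries serve both lines, so the differences of Cbfa2t2_KO and H3.3K27M share their controls. Cbfa2t2 itself was low, at 1.38 and 1.35 FPKM in H3.3WT, 1.02 and 0.769 in the libraries labelled Cbfa2t2_KO and 2.02 and 0.855 in H3.3K27M. Its difference in Cbfa2t2_KO did not pass (adjusted p = 0.153), and a gene-level value does not test an edit of unknown position.

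Markers of the labelled cell type were partly present. Of 12 neural stem and progenitor markers, 10 were listed, with summed levels of 122 to 134 FPKM in H3.3WT, 89.4 to 104 in Cbfa2t2_KO and 119 to 124 in H3.3K27M, while Sox1 and Fabp7 were not analysed here, and in each line 2 of 9 tested rose and 4 fell. Vim and Prom1 rose in both lines. Sox9, Nes, Hes1 and Sox2 fell in Cbfa2t2_KO, and Sox9, Nes, Notch1 and Msi1 in H3.3K27M. Over all tested genes 13.1% rose and 21.5% fell in Cbfa2t2_KO, and 8.42% and 17.8% in H3.3K27M. Sox2 stood at 30.9 and 34.4 FPKM in H3.3WT, 12.3 and 9.55 in Cbfa2t2_KO and 28.1 and 32.2 in H3.3K27M. Vim had 10.3 and 12.1 FPKM in H3.3WT, 27.3 and 26.5 in Cbfa2t2_KO and 34.6 and 41.8 in H3.3K27M. Nes had 35.2 and 38.8, 24.0 and 18.1, and 16.8 and 14.3 in the same order. Pax6 was too low to be tested. Pou5f1, which defines pluripotent cells, was at 919 to 1351 FPKM in the 6 libraries, and of the other pluripotent markers Lin28a was at 166 to 234 and Nanog at 2.85 to 9.86. In Cbfa2t2_KO Nanog fell (-0.83 ± 0.19, adjusted p = 0.0126), Lin28a rose (0.42 ± 0.13, adjusted p = 0.0381) and Pou5f1 did not pass (0.558). None of these 3 passed in H3.3K27M, and Zfp42 was not analysed here. Summed levels of 4 epithelial markers were 94.2 to 122 FPKM in H3.3WT, 198 to 213 in Cbfa2t2_KO and 182 to 183 in H3.3K27M, and 3 of the 4 rose in each line. Neuron markers, 3 of 6 listed, summed to 70.2 to 71.7, 126 to 143 and 69.9 to 73.1 FPKM in the same order, nearly all of it Tubb3 (67.4 to 139 FPKM). Rbfox3, another neuron marker, had 1.83 and 1.64 FPKM in H3.3WT, 1.18 and 1.14 in Cbfa2t2_KO and 0.702 and 0.571 in H3.3K27M, and fell in H3.3K27M (adjusted p = 0.0153). In Cbfa2t2_KO 2 of 3 tested neuron markers rose, Tubb3 (0.93 ± 0.13, adjusted p = 0.00223) and Syp (0.68 ± 0.16, adjusted p = 0.0162), and 0 fell. Syp had 0.992 and 1.11 FPKM in H3.3WT, 2.12 and 2.44 in Cbfa2t2_KO and 0.809 and 0.931 in H3.3K27M. It was too low to be tested in H3.3K27M against H3.3WT. Of 4 leukocyte markers, 0 were listed. The part of these shifts in the results below was not tested, and in RNA from whole cultures fewer cells of a kind and less RNA per cell cannot be told apart.

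Summed over the 34 genes, the RNA of these enzymes was higher in both lines than in H3.3WT. The sum was 1110 and 1065 FPKM in H3.3WT, 1362 and 1416 in Cbfa2t2_KO and 1277 and 1300.4 in H3.3K27M. The groups did not overlap, and the sum was 0.290% to 0.305% of a library's FPKM in H3.3WT, 0.360% to 0.362% in Cbfa2t2_KO and 0.310% to 0.344% in H3.3K27M. By role, the 15 cycle enzymes summed to 742 to 762 FPKM in H3.3WT, 830 to 887 in Cbfa2t2_KO and 781 to 830 in H3.3K27M. As a share of a library they overlapped between H3.3K27M (0.198% to 0.210%) and H3.3WT (0.202% to 0.210%). Pyruvate entry genes summed to 164.7 to 165.8, 181 to 183 and 164.6 to 180.5 FPKM in the same order, with overlap of H3.3K27M and H3.3WT. The cytosolic, NADP-linked or exit enzymes summed to 158 to 184, 347 to 351 and 305 to 316 FPKM. The sum held changes in both directions. Of 32 genes tested, each with at least 1 FPKM in every library, 13 rose and 3 fell in Cbfa2t2_KO, where 13.1% of all tested genes rose and 21.5% fell (34.6% in all). In H3.3K27M 11 rose and 3 fell, against 8.42% and 17.8% of all tested genes (26.2% in all). Both libraries lay above both of H3.3WT for 19 of the 32 in Cbfa2t2_KO and 17 in H3.3K27M (28.5% and 25.1% of all tested genes), and below for 6 and 5 (42.0% and 41.3%). The median difference was 0.27 in Cbfa2t2_KO and 0.25 in H3.3K27M, beside -0.11 and -0.12 over all tested genes. In all, 9 genes rose in both lines (Idh1, Idh2, Suclg1, Fh1, Mdh1, Pdha1, Pdk3, Me2 and Pck2) and Pdp1 fell in both. None rose in one line and fell in the other.

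Median-of-ratios scaling of the libraries shifted the median of all genes from -0.11 to -0.0013 in Cbfa2t2_KO and from -0.12 to 0.0037 in H3.3K27M. With it 50.5% and 48.8% of all calls were higher, against 37.9% and 32.1% as deposited, while 13 and 12 of the enzyme genes rose and 2 and 1 fell. In H3.3K27M the count of rises was 7 without H3.3WT replicate 1 and 4 without H3.3WT replicate 2, and no fall passed without either of them or without H3.3K27M replicate 2. In Cbfa2t2_KO 11 to 13 rises were called with any 1 library left out, and 1 fall.

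**Figure D1:**
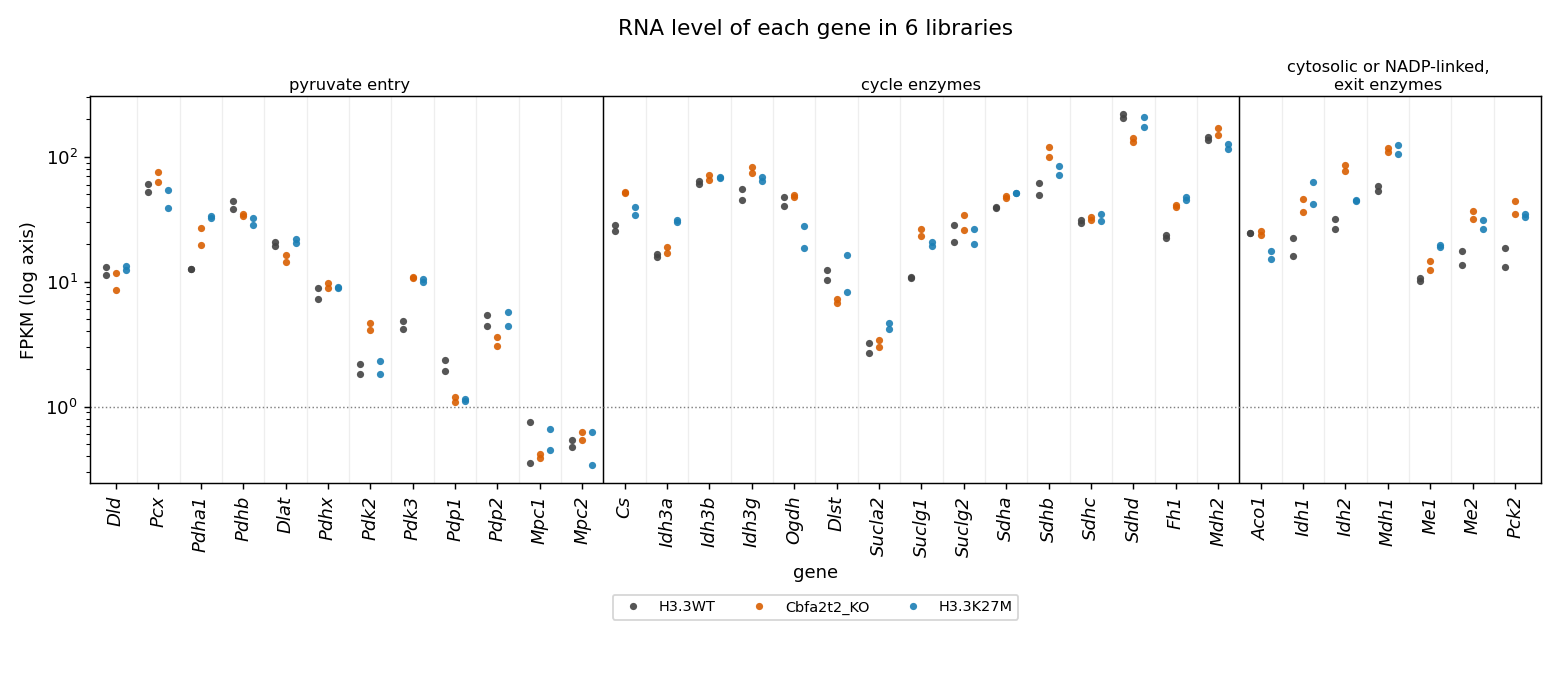
RNA level of the 34 genes in FPKM (log axis) in the 6 libraries, grouped by role, with 1 point per library and colours for the groups; the dotted line marks 1 FPKM. Mpc1 and Mpc2 lie below that line in every library, and for Idh1, Idh2, Mdh1 and Suclg1 both libraries of each line lie above both of H3.3WT.

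Among the genes of pyruvate entry, Pdha1 of the pyruvate dehydrogenase complex and the inhibiting kinase Pdk3 rose in both lines, the kinase Pdk2 rose in Cbfa2t2_KO, and the other subunits of the complex did not pass. In Cbfa2t2_KO 3 of 10 tested genes rose and 1 fell, where 13.1% of all tested genes rose and 21.5% fell (34.6% in all). In H3.3K27M 2 rose and 1 fell, against 8.42% and 17.8% of all tested genes (26.2% in all). In both lines the share of this block called, in either direction, was near that of all tested genes. Pdha1, the E1 alpha subunit that the kinases act on, had 12.7 and 12.6 FPKM in H3.3WT, 26.7 and 19.8 in Cbfa2t2_KO and 33.4 and 32.4 in H3.3K27M. All libraries of both lines were above both of H3.3WT, with differences of 0.81 ± 0.17 (adjusted p = 0.0105) and 1.31 ± 0.16 (adjusted p = 0.00181). Pdhb, its E1 beta partner, had lower values in both lines, with 38.0 and 44.0 FPKM in H3.3WT, 33.5 and 34.7 in Cbfa2t2_KO and 28.4 and 32.3 in H3.3K27M, and neither difference passed (adjusted p = 0.189 and 0.0998), although the fall in H3.3K27M did after the GC and length correction (-0.61, adjusted p = 0.0120). The ratio of Pdha1 to Pdhb was thus 0.334 and 0.287 in H3.3WT, 0.796 and 0.571 in Cbfa2t2_KO and 1.18 and 1.003 in H3.3K27M, 3 sets that did not overlap. Exons of Pdha1 share 603 bases, or 16.1%, with Map3k15 on the other strand, and the strand of the libraries is not stated. Map3k15 had 3.67 and 3.92 FPKM in H3.3WT, 2.66 and 2.02 in Cbfa2t2_KO and 5.67 and 4.32 in H3.3K27M, and was higher in H3.3K27M than in Cbfa2t2_KO (0.84 ± 0.19, adjusted p = 0.0385). Its part in the values of Pdha1 was not tested.

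The E2 and E3 parts of the complex moved less. Dlat, the E2 subunit, had 20.8 and 19.5 FPKM in H3.3WT, 16.3 and 14.3 in Cbfa2t2_KO and 22.2 and 20.4 in H3.3K27M. Both Cbfa2t2_KO libraries were the lowest, but the difference did not pass (adjusted p = 0.0836) except after the GC and length correction (0.0416). Pdhx, which tethers E3 to the complex, lay between 7.28 and 9.69 FPKM in all 6 libraries, and Dld, the E3 enzyme shared with the 2-oxoglutarate dehydrogenase complex, between 8.62 and 13.4. Neither passed in any comparison. The ratio of Pdhx to Dlat was 0.351 and 0.461 in H3.3WT, 0.595 and 0.623 in Cbfa2t2_KO and 0.406 and 0.438 in H3.3K27M, so it stood higher in Cbfa2t2_KO than in the other groups.

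Of the regulators of the complex, Pdk3, an inhibiting kinase, had 4.83 and 4.16 FPKM in H3.3WT, 10.8 and 10.97 in Cbfa2t2_KO and 10.5 and 9.96 in H3.3K27M. It rose to a similar level in both lines, by 1.11 ± 0.17 (adjusted p = 0.00248) and 1.03 ± 0.18 (adjusted p = 0.00621). Pdk2, another of the kinases, rose in Cbfa2t2_KO and did not pass in H3.3K27M (adjusted p = 0.928). Its values were 1.81 and 2.21 FPKM in H3.3WT, 4.11 and 4.67 in Cbfa2t2_KO and 2.33 and 1.82 in H3.3K27M, a rise of 0.84 ± 0.18 in Cbfa2t2_KO (adjusted p = 0.00985). H3.3K27M was lower than Cbfa2t2_KO for Pdk2 by -0.81 ± 0.18 (adjusted p = 0.0344), a direct test in a fit of all 6 libraries. Pdp1, a phosphatase that reactivates the complex, had 1.92 and 2.38 FPKM in H3.3WT, 1.20 and 1.08 in Cbfa2t2_KO and 1.15 and 1.11 in H3.3K27M. It fell by 0.55 and 0.56 on the log2 scale (adjusted p = 0.0363 and 0.0486), close to the floor of 1 FPKM. The other phosphatase, Pdp2, had 4.45 and 5.42 FPKM in H3.3WT, 3.60 and 3.07 in Cbfa2t2_KO and 5.68 and 4.41 in H3.3K27M and did not pass (adjusted p = 0.0908 and 0.940). The ratio of Pdp1 to Pdp2 was 0.432 and 0.439 in H3.3WT, 0.333 and 0.353 in Cbfa2t2_KO and 0.202 and 0.251 in H3.3K27M.

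The remaining genes of pyruvate entry did not pass. Pcx, pyruvate carboxylase, which makes oxaloacetate, was at 60.7 and 52.3 FPKM in H3.3WT, 62.6 and 75.4 in Cbfa2t2_KO and 54.3 and 38.7 in H3.3K27M. Mpc1 and Mpc2, the subunits of the mitochondrial pyruvate carrier, were at 0.356 to 0.751 and 0.339 to 0.632 FPKM and were too low to be tested. Among the calls of these paragraphs, that of Pdha1 in Cbfa2t2_KO was lost without Cbfa2t2_KO replicate 1 (adjusted p = 0.0594), that of Pdk2 in Cbfa2t2_KO without Cbfa2t2_KO replicate 2 (0.0571), and that of Pdk3 in H3.3K27M without H3.3WT replicate 2 (0.0559). Those of Pdp1 in both lines were lost without any 1 of the 4 libraries (adjusted p = 0.0599 to 0.182 in Cbfa2t2_KO and 0.0864 to 0.230 in H3.3K27M). The Pdp1 call in Cbfa2t2_KO was also lost after the GC and length correction (0.0502), and that in H3.3K27M with a pseudocount of 0.1 (0.0579), with no filter (0.0566), under median-of-ratios scaling (0.0719) and under quantile normalization (0.0725). The call of Pdk2 between the lines was lost without H3.3WT replicate 1 (0.0504), either Cbfa2t2_KO library (0.0798 and 0.222) or H3.3K27M replicate 2 (0.129).

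Of the 15 enzymes of the cycle proper 5 rose and 2 fell in Cbfa2t2_KO, where 13.1% and 21.5% of all tested genes did. In H3.3K27M 3 rose and 1 fell, a share called that was near the 26.2% of all tested genes. Cs, citrate synthase, which starts the cycle, had 28.5 and 25.5 FPKM in H3.3WT, 52.2 and 51.8 in Cbfa2t2_KO and 39.4 and 34.04 in H3.3K27M. The groups did not overlap, and H3.3K27M lay between the others. Cs rose by 0.92 ± 0.14 in Cbfa2t2_KO (adjusted p = 0.00239), while its difference in H3.3K27M did not pass (0.43 ± 0.17, adjusted p = 0.0929) except under median-of-ratios scaling (adjusted p = 0.0471) or quantile normalization (0.0389).

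The NAD-linked isocitrate dehydrogenase is built from the products of Idh3a, which carries the catalytic site, and of Idh3b and Idh3g. Idh3a had 15.7 and 16.7 FPKM in H3.3WT, 19.0 and 16.8 in Cbfa2t2_KO and 30.1 and 31.3 in H3.3K27M. Both H3.3K27M libraries stood above the other 4, a rise of 0.88 ± 0.16 against H3.3WT (adjusted p = 0.0068) and of 0.75 ± 0.15 against Cbfa2t2_KO (adjusted p = 0.0271). Idh3g passed in the other line, with 55.6 and 45.02 FPKM in H3.3WT, 74.5 and 83.7 in Cbfa2t2_KO and 68.6 and 64.1 in H3.3K27M, and rose in Cbfa2t2_KO by 0.65 ± 0.15 (adjusted p = 0.0149). Its difference between the lines did not pass (adjusted p = 0.335). Idh3b stayed within 60.9 to 71.7 FPKM in all libraries. The ratio of Idh3a to Idh3g was accordingly 0.282 and 0.372 in H3.3WT, 0.255 and 0.201 in Cbfa2t2_KO and 0.439 and 0.488 in H3.3K27M, with no overlap between groups. That of Idh3a to Idh3b was 0.246 and 0.275, 0.288 and 0.235, and 0.439 and 0.466 in the same order. There Cbfa2t2_KO overlapped H3.3WT, and H3.3K27M stood above both.

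The next complex, 2-oxoglutarate dehydrogenase, had a called fall of 1 subunit in each line, and not of the same one. Ogdh, the E1 subunit that binds 2-oxoglutarate, had 48.0 and 40.5 FPKM in H3.3WT, 47.5 and 49.4 in Cbfa2t2_KO and 27.9 and 18.7 in H3.3K27M. It fell in H3.3K27M by 0.92 on the log2 scale against H3.3WT (SE 0.21, adjusted p = 0.0168) and by 1.05 against Cbfa2t2_KO (SE 0.20, adjusted p = 0.0221). Dlst, the E2 subunit, had 12.4 and 10.2 FPKM in H3.3WT, 6.75 and 7.24 in Cbfa2t2_KO and 8.24 and 16.4 in H3.3K27M. It fell in Cbfa2t2_KO by 0.62 on the log2 scale (SE 0.17, adjusted p = 0.0253), and the H3.3K27M libraries differed too much from each other to place it. The ratio of Ogdh to Dlst was 3.89 and 3.95 in H3.3WT, 7.03 and 6.83 in Cbfa2t2_KO and 3.39 and 1.14 in H3.3K27M. H3.3K27M replicate 2 was the lowest of the 6 libraries for Ogdh and the highest for Dlst.

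Succinyl-CoA ligase pairs the alpha subunit, from Suclg1, with an ATP-forming (Sucla2) or GTP-forming (Suclg2) beta subunit. Suclg1 had 10.9 and 10.7 FPKM in H3.3WT, 23.4 and 26.4 in Cbfa2t2_KO and 19.4 and 20.9 in H3.3K27M. It rose in both lines, by 1.14 ± 0.15 (adjusted p = 0.00159) and 0.84 ± 0.17 (adjusted p = 0.00889), and every library of either line was above both of H3.3WT. The beta subunits did not pass, at 2.71 to 4.69 FPKM for Sucla2 and 20.2 to 33.98 for Suclg2. The ratio of Suclg1 to Suclg2 was 0.380 and 0.515 in H3.3WT, 0.690 and 1.02 in Cbfa2t2_KO and 0.733 and 1.04 in H3.3K27M.

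Succinate dehydrogenase, also complex II of the respiratory chain, changed by subunit in Cbfa2t2_KO. Sdhb, the iron-sulfur subunit, had 61.8 and 49.8 FPKM in H3.3WT, 100.6 and 121 in Cbfa2t2_KO and 71.1 and 84.5 in H3.3K27M, and rose in Cbfa2t2_KO by 0.98 ± 0.16 (adjusted p = 0.00366). Sdhd, a membrane anchor and the most abundant RNA of the set in H3.3WT, had 205 and 220.2 FPKM there, 131 and 141 in Cbfa2t2_KO and 175 and 208 in H3.3K27M, and fell in Cbfa2t2_KO by 0.64 on the log2 scale (SE 0.13, adjusted p = 0.0097). Within this enzyme 1 subunit thus rose and another fell in Cbfa2t2_KO. The flavoprotein subunit Sdha, at 39.3 and 39.9 FPKM in H3.3WT, 48.9 and 46.8 in Cbfa2t2_KO and 51.2 and 51.7 in H3.3K27M, did not pass (adjusted p = 0.143 and 0.111), and the other anchor, Sdhc, lay within 29.5 to 34.8 FPKM. In H3.3K27M no subunit of this enzyme passed, although Sdhb did after the GC and length correction (adjusted p = 0.0485) and Sdha under quantile normalization (0.0464).

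Fh1, fumarase, had 23.5 and 22.2 FPKM in H3.3WT, 41.2 and 39.4 in Cbfa2t2_KO and 45.4 and 47.3 in H3.3K27M. The groups did not overlap, and it rose by 0.79 ± 0.13 (adjusted p = 0.0041) and 0.99 ± 0.16 (adjusted p = 0.00451). Mdh2, the mitochondrial malate dehydrogenase that closes the cycle, had 137 and 145 FPKM in H3.3WT, 149.7 and 169 in Cbfa2t2_KO and 115 and 126 in H3.3K27M and did not pass (adjusted p = 0.351 and 0.334). Among the calls on cycle enzymes, those lost with 1 library left out were Idh3g in Cbfa2t2_KO without H3.3WT replicate 2 (adjusted p = 0.0824) or Cbfa2t2_KO replicate 2 (0.0990), Sdhd without H3.3WT replicate 2 (0.0605), and Dlst without H3.3WT replicate 1 (0.117) or either Cbfa2t2_KO library (0.0934 and 0.0828). In H3.3K27M they were Idh3a without H3.3WT replicate 1 (0.0566), Suclg1 without either H3.3WT library (0.0575 and 0.0673) and Ogdh without either of these (0.112 and 0.0594) or H3.3K27M replicate 2 (0.0724). The calls of Idh3a and Ogdh between the lines were lost without H3.3K27M replicate 2 or either Cbfa2t2_KO library (adjusted p = 0.0657 to 0.200). The call of Dlst in Cbfa2t2_KO was also lost under median-of-ratios scaling (0.0547), under quantile normalization (0.0685) and in the fit of all 6 libraries (0.113).

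**Figure D2:**
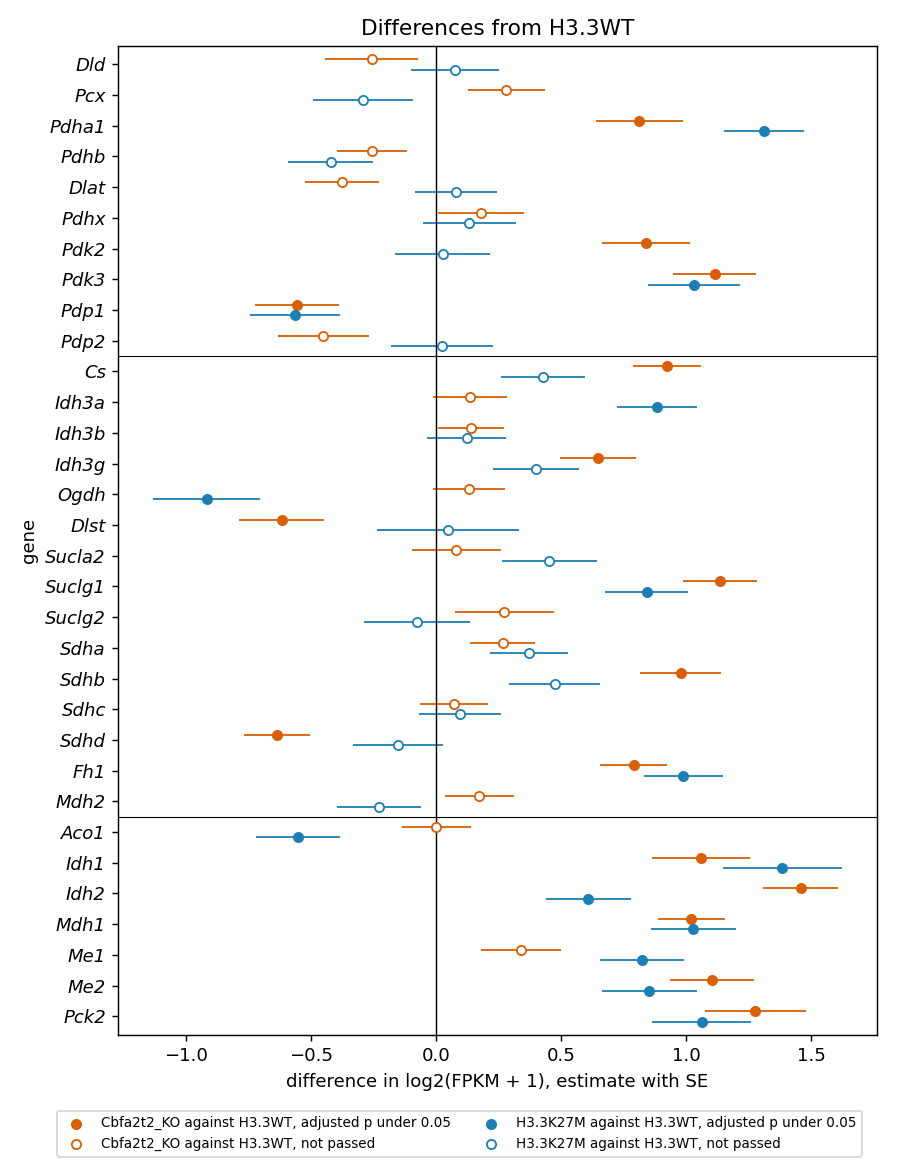
Differences from H3.3WT on the log2(FPKM + 1) scale with their SE for the 32 tested genes, in the order of the level plot; filled points passed the adjusted threshold and open points did not. Most genes of the lowest block lie to the right of 0 in both lines, while Ogdh, Dlst, Idh3a and Pdk2 passed in 1 line only.

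The enzymes that work in the cytosol, use NADP or draw carbon out of the cycle had the highest share of rises. Of 7 tested, 5 rose and none fell in Cbfa2t2_KO, where 13.1% of all tested genes rose and 21.5% fell. In H3.3K27M 6 rose and 1 fell, against 8.42% and 17.8% of all tested genes. The median differences were 1.06 and 0.85, beside -0.11 and -0.12 over all tested genes. Idh2, the mitochondrial NADP-linked isocitrate dehydrogenase, showed the largest rise of the set in Cbfa2t2_KO. It had 31.8 and 26.4 FPKM in H3.3WT, 76.6 and 86.2 in Cbfa2t2_KO and 44.3 and 45.1 in H3.3K27M, with differences of 1.46 ± 0.15 (adjusted p = 0.000898) and 0.61 ± 0.17 (adjusted p = 0.0307). The groups did not overlap, and Idh2 was lower in H3.3K27M than in Cbfa2t2_KO by -0.85 ± 0.15 (adjusted p = 0.0200). Idh1, which does the same reaction in the cytosol and peroxisomes, had 22.6 and 16.0 FPKM in H3.3WT, 45.9 and 36.1 in Cbfa2t2_KO and 62.8 and 42.0 in H3.3K27M. It rose by 1.06 ± 0.20 (adjusted p = 0.00584) and 1.39 ± 0.24 (adjusted p = 0.00563), and the values of the lines overlapped. The ratio of Idh2 to Idh1 was 1.41 and 1.65 in H3.3WT, 1.67 and 2.39 in Cbfa2t2_KO and 0.705 and 1.08 in H3.3K27M, lowest in H3.3K27M.

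Mdh1, the cytosolic malate dehydrogenase of the malate-aspartate shuttle, had 58.6 and 53.1 FPKM in H3.3WT, 119 and 109.7 in Cbfa2t2_KO and 106 and 124 in H3.3K27M. It rose by a like amount in both, 1.02 ± 0.13 (adjusted p = 0.00163) and 1.03 ± 0.17 (adjusted p = 0.00492). Its ratio to mitochondrial Mdh2 was 0.427 and 0.367 in H3.3WT, 0.793 and 0.648 in Cbfa2t2_KO and 0.927 and 0.984 in H3.3K27M, without overlap between groups. Aco1, the cytosolic aconitase that doubles as an iron regulatory protein, was the exception of this block. It had 24.4 and 24.6 FPKM in H3.3WT, 23.6 and 25.5 in Cbfa2t2_KO and 17.5 and 15.3 in H3.3K27M, and fell in H3.3K27M by 0.55 on the log2 scale (SE 0.17, adjusted p = 0.0413), a call lost under median-of-ratios scaling (adjusted p = 0.111), under quantile normalization (0.127) and without the trend in the variance (0.0502).

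Malic enzymes turn malate back into pyruvate. Me2, the mitochondrial NAD-linked form, had 17.6 and 13.6 FPKM in H3.3WT, 36.9 and 32.0 in Cbfa2t2_KO and 31.3 and 26.3 in H3.3K27M, and rose by 1.10 ± 0.17 (adjusted p = 0.0027) and 0.85 ± 0.19 (adjusted p = 0.0141). Me1, the cytosolic NADP-linked form, had 10.1 and 10.8 FPKM in H3.3WT, 14.6 and 12.3 in Cbfa2t2_KO and 18.8 and 19.6 in H3.3K27M. The groups did not overlap, and the rise passed in H3.3K27M (0.82 ± 0.17, adjusted p = 0.00975) and not in Cbfa2t2_KO (0.34 ± 0.16, adjusted p = 0.134) except under quantile normalization (0.0419). The difference between the lines did not pass either (adjusted p = 0.0891). Pck2, the mitochondrial phosphoenolpyruvate carboxykinase, had 18.7 and 13.1 FPKM in H3.3WT, 34.7 and 44.7 in Cbfa2t2_KO and 34.6 and 33.0 in H3.3K27M. Its rises were 1.28 ± 0.20 (adjusted p = 0.00301) and 1.06 ± 0.20 (adjusted p = 0.00722). In Cbfa2t2_KO the calls of this block were kept with any 1 library left out. In H3.3K27M those of Mdh1 (adjusted p = 0.0513) and Pck2 (0.0642) were lost without H3.3WT replicate 2, that of Me2 without H3.3WT replicate 2 (0.117) or H3.3K27M replicate 1 (0.0533), and that of Me1 without either H3.3WT library (0.0726 and 0.0594). That of Aco1 was lost without either H3.3WT library (0.168 and 0.183) or H3.3K27M replicate 2 (0.129), that of Idh2 without any 1 of the 4 (0.0600 to 0.217), and that of Idh2 between the lines without either Cbfa2t2_KO library or H3.3K27M replicate 2 (0.0575 to 0.177).

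**Figure D3:**
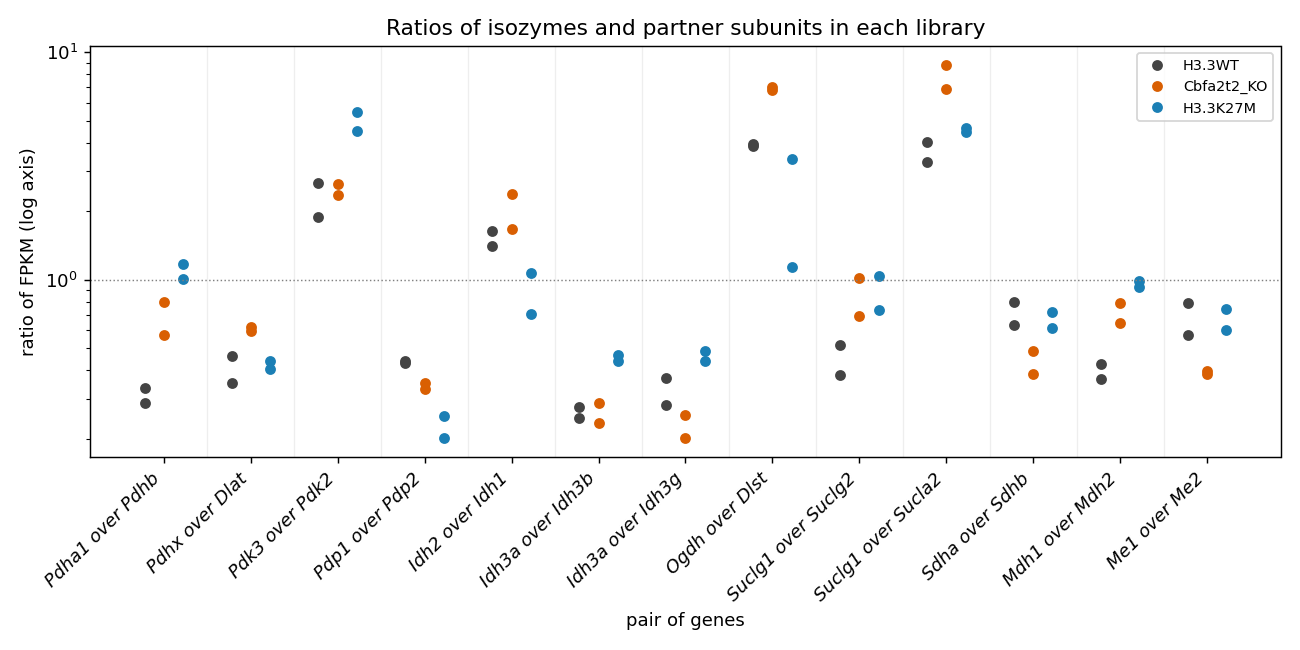
Ratio of FPKM (log axis) of 13 pairs of isozymes or partner subunits in the 6 libraries, with 1 point per library and colours for the groups. The ratios of Pdha1 to Pdhb and of Mdh1 to Mdh2 are lowest in H3.3WT and highest in H3.3K27M without overlap, and Ogdh to Dlst is highest in Cbfa2t2_KO.

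Compared directly, H3.3K27M and Cbfa2t2_KO differed in 4 of the 32 genes. Idh3a was higher in H3.3K27M, and Idh2, Ogdh and Pdk2 were lower, with a median difference of -0.032 beside -0.019 over all tested genes. Over all tested genes 3.12% were called higher and 4.68% lower, 7.8% in all. Correction for GC content and transcript length gave 2 higher and 6 lower. It added Sdhd among the higher and Cs, Aco1, Sdhb and Mdh2 among the lower, and lost Pdk2 (adjusted p = 0.0516). Over all 11601 tested genes the calls also went up with it, from 905 to 1284. With Cbfa2t2_KO replicate 1, Cbfa2t2_KO replicate 2 or H3.3K27M replicate 2 left out, none of the 4 passed. Without H3.3K27M replicate 1, Dlst was also called higher (1.12, adjusted p = 0.0273) and Pcx lower (-0.81, adjusted p = 0.0447).

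Other genes of the same pathway were taken as a list of 31, of which 28 were in the tables and 27 were tested. In Cbfa2t2_KO 8 rose and 6 fell, with a median of -0.022, where 13.1% of all tested genes rose and 21.5% fell. The share of falls was near that of all tested genes. The falls were Glud1, Got1, Lias, Lipt1, Sdhaf1 and Sdhaf2. Glud1 fell from 44.1 and 39.7 to 28.0 and 25.6 FPKM (adjusted p = 0.0120). Its call did not hold once H3.3WT replicate 1 was dropped (difference -0.55), nor once Cbfa2t2_KO replicate 2 was (-0.56). Got1 fell from 87.2 and 88.2 to 62.6 and 65.4 FPKM (adjusted p = 0.0294). The Got1 call was lost under median-of-ratios scaling (0.171) and without the trend in the variance (0.0521). Dropping any 1 library also removed it, at differences of -0.48 to -0.42. In H3.3K27M 8 rose and 2 fell, with a median of 0.074, where 8.42% and 17.8% of all tested genes did. Pdk1, a further kinase of pyruvate dehydrogenase and a known target of the hypoxia factor HIF1, had 9.68 and 8.58 FPKM in H3.3WT, 17.3 and 13.3 in Cbfa2t2_KO and 23.7 and 20.1 in H3.3K27M. It rose by 0.68 ± 0.18 (adjusted p = 0.0214) and 1.17 ± 0.18 (adjusted p = 0.00372). Pdk4 was not analysed here.

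RNA of the carrier and of the enzyme on the route of citrate out of mitochondria rose in both lines. Slc25a1, the citrate carrier, had 20.5 and 20.8 FPKM in H3.3WT, 35.3 and 38.6 in Cbfa2t2_KO and 37.2 and 37.3 in H3.3K27M, with differences of 0.81 ± 0.14 (adjusted p = 0.0040) and 0.82 ± 0.16 (adjusted p = 0.00802). Acly, which splits exported citrate into acetyl-CoA and oxaloacetate, had 55.3 and 42.6 FPKM in H3.3WT, 98.0 and 87.2 in Cbfa2t2_KO and 92.6 and 68.5 in H3.3K27M, with differences of 0.91 ± 0.16 (adjusted p = 0.00493) and 0.70 ± 0.21 (adjusted p = 0.0388). Factors that assemble or lipoylate the enzymes differed among themselves, and these were picked out of the list after their values were seen. Sdhaf1 and Sdhaf2, assembly factors of succinate dehydrogenase, stood at 12.9 and 15.0 and at 13.2 and 15.99 FPKM in H3.3WT and at 6.92 and 8.17 and at 8.43 and 7.40 in Cbfa2t2_KO, and both fell (adjusted p = 0.00941 and 0.00988). In H3.3K27M they stood at 5.76 in both libraries and at 8.95 and 8.69 FPKM, and fell too (adjusted p = 0.00428 and 0.0296). Lias and Lipt1 belong to the route that makes and attaches the lipoyl group that the E2 subunits need. They fell in Cbfa2t2_KO, from 6.95 and 8.01 to 4.33 and 4.44 FPKM and from 6.06 and 6.87 to 3.63 and 3.51 (adjusted p = 0.0215 and 0.0165), and did not pass in H3.3K27M (0.0802 and 0.0673). Lipt2, of the same lipoylation route, passed in neither line (0.159 and 0.205). Sdhaf4, a further assembly factor of succinate dehydrogenase, had 11.6 and 11.5 FPKM in H3.3WT, 13.2 and 13.1 in Cbfa2t2_KO and 15.5 and 24.2 in H3.3K27M. It rose in H3.3K27M by 0.70 ± 0.22 (adjusted p = 0.0470), a call lost without either H3.3WT library or H3.3K27M replicate 2 (0.160 to 0.190), after the GC and length correction (0.113), with a pseudocount of 0.1 (0.0504), with no filter (0.0552) and without the trend in the variance (0.0520), and did not pass in Cbfa2t2_KO (0.375). In Cbfa2t2_KO, besides Glud1 and Got1, further calls were lost with 1 library left out. They were Pdk1 and Sdhaf1 (H3.3WT replicate 2 or Cbfa2t2_KO replicate 1) and Sdhaf2 (H3.3WT replicate 2 or Cbfa2t2_KO replicate 2). Lias and Lipt1 were lost too (H3.3WT replicate 2 or either Cbfa2t2_KO library). In H3.3K27M the calls of Slc25a1 and Acly were lost without either H3.3WT library, and that of Acly also without H3.3K27M replicate 1. That of Sdhaf2 was lost without any 1 of the 4. That of Sdhaf2 was also lost under median-of-ratios scaling (0.0620) and quantile normalization (0.0856). Without H3.3WT replicate 2 the list had 5 rises and 1 fall in Cbfa2t2_KO and 1 of each in H3.3K27M.

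**Figure D4:**
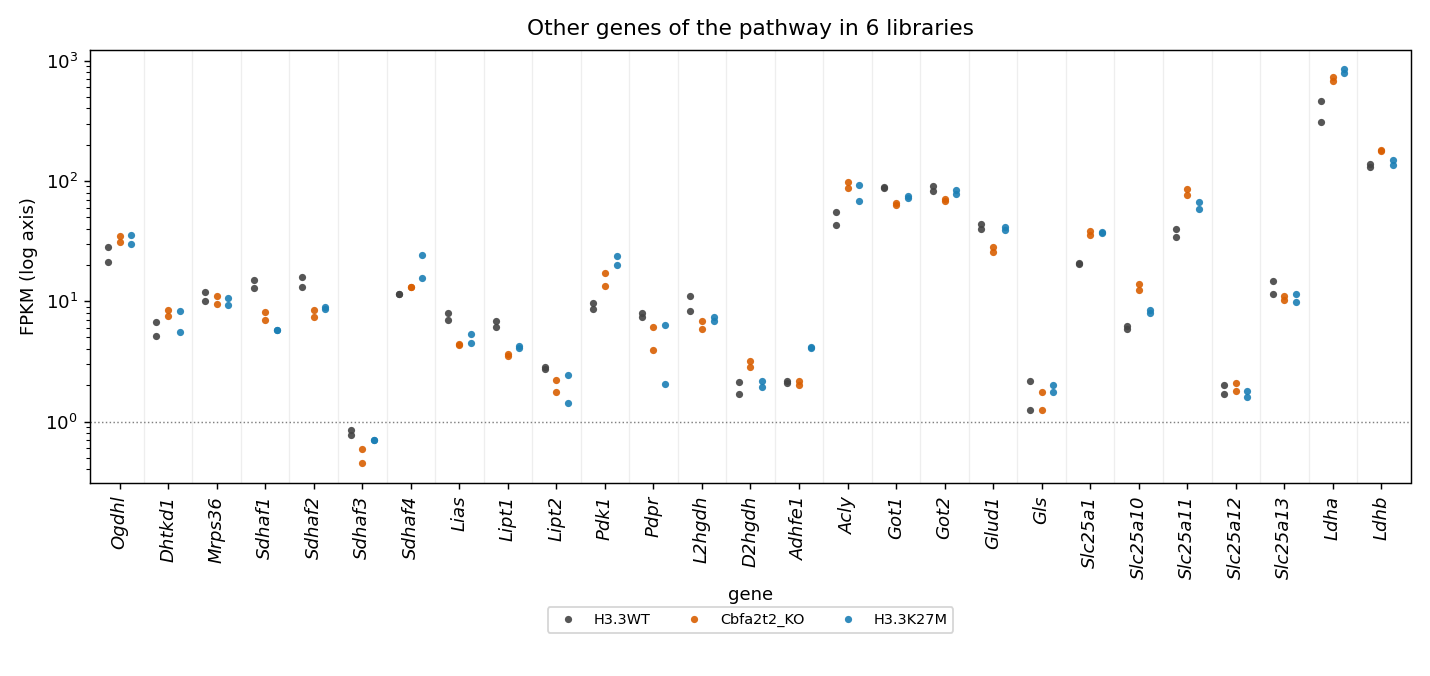
RNA level in FPKM (log axis) of 27 other genes of the pathway in the 6 libraries, with 1 point per library and colours for the groups; the dotted line marks 1 FPKM. Slc25a1, Acly and Slc25a11 lie higher in both lines than in H3.3WT, and Sdhaf1 and Sdhaf2 lie lower.

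The promoters of the set were searched for short motifs, as a description with no test. RefSeq windows of 250 bases before and 50 after a start (GRCm38.p6) were found for 31 of the 35 genes, and the first listed window of each gene was searched on both strands. GCGTG, a core of hypoxia response elements, was in 17 of 31 (54.8%), beside 54.5% of 8168 tested genes with a window and 32.5% of all 27025 promoters. ACGTG, the other such core, was in 9 (29.0%), beside 26.9% and 19.7%. CCAAT was in 20 (64.5%), beside 39.7% and 37.9%. The E-box CACGTG, which contains ACGTG, was in 3 (9.68%), beside 10.98% and 7.24%. TGACGTCA, the cAMP response element, was in 2, ACTTCCGG (ETS factors) in 1 and AAGGTCA (estrogen-related receptors) in 1. A word for the site of NRF1 and a word for that of YY1 were in 0 of the 31. Windows of the enzyme genes held a median of 21 CpG, those of tested genes 22 and those of all promoters 7. A match is a description of letters and not of binding.

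To show these windows, sequence is given for the genes with the largest rises and the deepest falls on the log2(FPKM + 1) scale in Cbfa2t2_KO, Idh2 and Pck2 and then Sdhd and Dlst. As a ratio of group means the low gene Pdp1 fell further (0.530, beside 0.642 for Sdhd and 0.619 for Dlst). Each runs 5′ to 3′ on the strand of the gene, from RefSeq GRCm38.p6, without bases that lie in an annotated exon, and capitals mark a match to one of the motifs searched. In Idh2 (chr7:80115393-80115600, reverse strand) and Pck2 (chr14:55540016-55540265, forward strand) GCGTG begins 73 and 85 bases before the start, and Pck2 has CCAAT 41 bases before it. The window of Idh2 also holds CCAAT, outside the bases shown, which leave out the 42 bases next to the start.
Idh2: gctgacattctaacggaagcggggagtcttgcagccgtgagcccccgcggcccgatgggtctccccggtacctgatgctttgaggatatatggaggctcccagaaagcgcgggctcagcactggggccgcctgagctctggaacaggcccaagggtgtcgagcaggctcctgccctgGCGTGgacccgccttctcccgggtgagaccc
Pck2: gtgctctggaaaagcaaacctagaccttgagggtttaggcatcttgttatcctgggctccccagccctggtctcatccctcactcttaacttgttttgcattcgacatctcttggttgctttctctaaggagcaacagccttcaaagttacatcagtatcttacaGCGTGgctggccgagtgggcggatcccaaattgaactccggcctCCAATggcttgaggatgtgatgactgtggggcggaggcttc
The window of Sdhd is shared with exons of Timm8b. Only the 60 bases next to the start are therefore shown (chr9:50603850-50603909, reverse strand), with GCGTG on the opposite strand. The end of this window was not found in an annotated transcript of Sdhd, so its orientation was not checked. The AAGGTCA of Sdhd lies outside these bases. Dlst (chr12:85110583-85110683, forward strand) shows no match in the 101 bases left after exons of Prox2 are taken out, and its ACTTCCGG lies outside them.
Sdhd: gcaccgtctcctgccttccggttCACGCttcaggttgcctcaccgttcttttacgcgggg
Dlst: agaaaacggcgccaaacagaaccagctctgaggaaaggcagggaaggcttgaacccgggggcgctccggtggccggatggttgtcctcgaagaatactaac

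In the GENCODE vM21 annotation of GRCm38 the genes that rose most in Cbfa2t2_KO lie on different chromosomes: Idh2 at chromosome 7, 80094846 to 80115392 (reverse strand, up to 11 exons), Pck2 at chromosome 14, 55540266 to 55551242 (forward strand, up to 11 exons) and Suclg1 at chromosome 6, 73248382 to 73276911 (forward strand, up to 9 exons). The tested enzyme genes had a median GC content of 47.7% in their longest transcript and a median of 11 exons, against 50.7% and 8 over all tested genes. Besides Pdha1, exon overlap with a gene on the other strand was 23.1% for Mpc1, with a gene not analysed here, and at most 2.03% for Idh3b, Mdh1, Me1 and Pck2.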

How the data were processed

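The authors deposited FPKM per gene in 2 tables, each pairing 1 line with the H3.3WT libraries. The submitters' processing notes name the build GRCm38 and the tools StringTie, HISAT2, DESeq and Trim Galore. Versions and annotation release are not given in the sources used here. Every listed gene reached 0.5 FPKM in at least 1 library. Column names of H3.3K27M name no sample: beside a letter L and a running number they hold an M, which placed them in that group, and the replicate numbers are those of the columns. For the 14082 genes in both tables, H3.3WT had the same values in each. Per the labels' protocols, poly(A) RNA was captured on oligo(dT) beads.

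Genes that averaged 1 FPKM or more were fitted on log2(FPKM + 1) with limma 3.58.1 (eBayes with trend) in R 4.3.3, with Benjamini-Hochberg adjustment over all genes tested (11626, 11623 and 11601). Lines were compared with H3.3WT in 4 libraries and with each other in 6. An exact two-sided permutation test of 2 against 2 libraries cannot go below p = 0.333. The fit was tested on simulated data. The genes, lists and tests were chosen with earlier results of these data known. Every gene of the set was to be described, with library values for those called. Alternatives were the pseudocount, filters, scaling, variance model, a GC and length correction, other sets of libraries and leaving out each library. For 1 gene of the list of other pathway genes, which is included in that list's counts, values are not reported here.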

Additional observations from a re-analysis of the deposited data

How the results depend on the processing

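No paired analysis was possible because the labels number no replicates. With 1 library left out, its lone partner is assumed to vary like the other groups. The counts of enzyme genes that rose in Cbfa2t2_KO kept within 1.5 times under all 13 alternatives. With 1 library left out, 1 fell in Cbfa2t2_KO (in each of the 4 fits), 4 to 10 rose and 0 to 2 fell in H3.3K27M, and between the lines 0 to 2 were higher and 0 to 4 lower. All genes called then ran from 1915 to 3038 in Cbfa2t2_KO (4028 with all libraries), 1007 to 2790 in H3.3K27M (3049) and 29 to 786 between the lines (905), and 554 in the fit of 4 libraries of the last. In H3.3K27M 1 fell under median-of-ratios scaling and 1 under quantile normalization. Between the lines, 2 were higher and 6 lower after the GC and length correction, where 1284 of all genes were called. No called difference of an enzyme gene changed sign under an alternative. The cause of these changes was not tested. Depth is unknown, so counting error is not separated from other spread.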
